A study of Drosophila melanogaster with 18 samples.

Results

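The 61 genes described here had a positive ratio on every slide of a comparison between Drosophila melanogaster switched to banana and controls on a cornmeal diet. They were chosen from the readout itself. Slide medians were first subtracted, and the ratios of 3 slides were multiplied by -1, as set out below. To enter, a gene with a single symbol then had to be above 0 on all 6 slides. Its 6-slide mean also had to be at least 0.4 on the log2 scale. Of 4574 named genes on the array, 4144 had a value on all 6 slides, and 74 of them met both conditions. Symbols of the cytochrome P450, cuticle, heat shock and other families and some single symbols were then left out by rule, which removed 13 genes and left 61. The other 430 named genes lacked a value on some slide and could not enter. Because these ratios chose the genes, their sizes are given as a description and support nothing.

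On every 2-colour slide, total RNA of animals switched to banana was hybridised together with total RNA of animals kept on cornmeal, and each slide was deposited as 3 samples, 1 for each set of repeat spots, or 18 samples in all. Channel 1 held the banana RNA on 3 slides and the cornmeal RNA on the other 3, which made up 3 dye-flip pairs. The labels give no strain, age, sex, stage or tissue, so no marker check was possible, and they leave the origin of the pairs unstated, so that the spread between them may be technical. Spot sets are repeat spots and a flip partner is a repeat hybridisation, so there were 3 independent units at most. The RNA is bulk RNA, in which fewer cells of a type and less RNA per cell cannot be told apart.

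Ratios of the slides with cornmeal RNA in channel 1 were multiplied by -1, and these values are called turned. Which channel stands on top of the deposited ratios is not stated. With channel 1 on top, genes with positive turned ratios would be the more abundant on banana, and with channel 2 on top, on cornmeal, so values are called positive or negative and neither diet is called higher. As deposited, the values of flip partners ran against each other over the 4144 genes, with Pearson's r of -0.22, -0.39 and -0.07 in pairs 1, 2 and 3. Spearman's rho was -0.18, -0.23 and 0.12, so that the ranks of pair 3 did not run that way. Slides of one orientation had Pearson's r between -0.14 and 0.25 and Spearman's rho between -0.09 and 0.48. Slides of opposite orientation that were not partners had Pearson's r between -0.09 and 0.23, and it was positive in 3 of 6 cases. These are correlations across genes, which are not independent replicates.

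A change of food acts on several known branches of insect metabolism. Fatty acids are taken up, activated with coenzyme A and shortened by oxidation in peroxisomes and mitochondria. Transaminases move amino groups between amino acids and keto acids, glutamine synthetase fixes ammonia onto glutamate, and arginase splits arginine. Tyrosine is turned into dopamine, which serves nerve cells and the tanning of new cuticle.

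The diet ratio was tested over all 4723 rows (genes, and probes without a single symbol) that had a value on both slides of all 3 pairs. Of these rows, 0 (0.0%) passed an adjusted p of 0.05 (limma on the 3 pair ratios), and 380 (8.05%) had an unadjusted p under 0.05. Of the 4144 named genes, 3.81% were above 0 on all 6 slides and 2.85%, or 118 genes, were below 0 on all 6. A mean of at least 0.4 was reached by 5.98%, that mean together with 6 positive slides by 1.79%, and the 61 genes were 1.47%. The 1.79% and 1.47% follow from the rule that chose the genes, and nothing is read from them. The other shares describe all tested rows or all named genes.

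The 6-slide means of the 61 genes lay between 0.40 and 1.75, or 1.32-fold and 3.37-fold, with a median of 0.59. Only 7 of them averaged at least 1, and 32 averaged under 0.6. The lowest slide of a gene had a median of 0.16, and for 18 genes it was under 0.1. The SD over slides had a median of 0.35 among the 61 genes and of 0.36 among the other 4083 named genes.

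**Figure D1:**
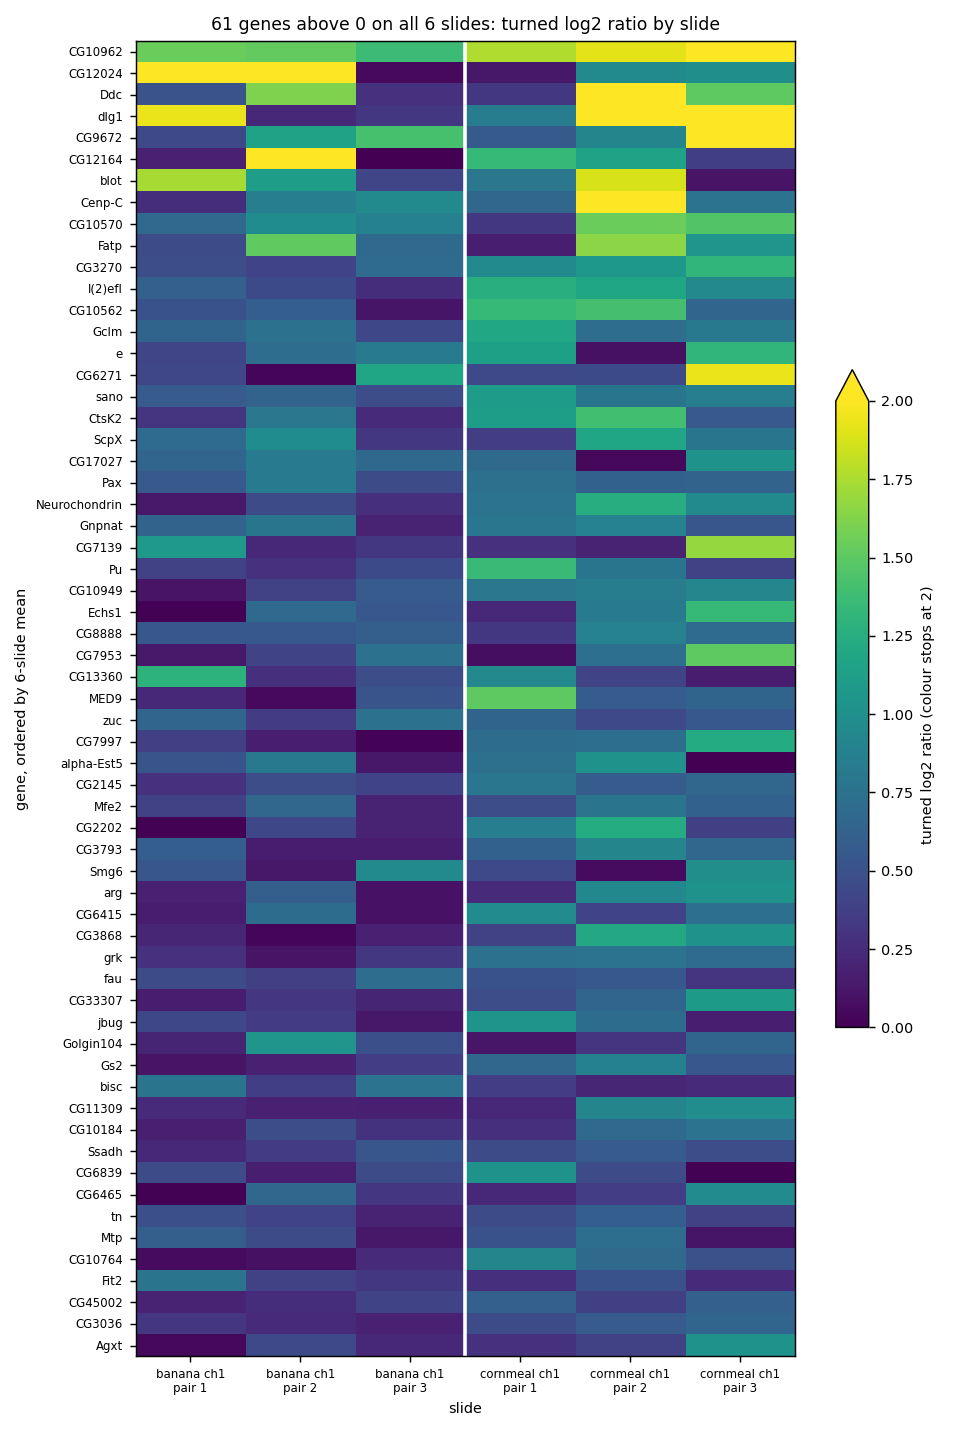
Turned log2 ratio of the 61 genes (rows, ordered by 6-slide mean) on the 6 slides (columns), with banana RNA in channel 1 on the left 3 and cornmeal RNA in channel 1 on the right 3. All cells are above 0, the top row, CG10962, is high on all 6 slides, and several of the next rows are bright on 1 or 2 slides only.

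CG10962, predicted to encode a short-chain dehydrogenase/reductase, had the largest mean, 1.75 ± 0.37 (SD over 6 slides, as in all values that follow). In pairs 1, 2 and 3, in this order throughout, its ratios were 1.54, 1.52 and 1.37 where banana RNA was in channel 1 and 1.76, 1.92 and 2.39 where cornmeal RNA was. Even the lowest slide of CG10962 lay above the 6-slide mean of every other gene of the set, and the orientations did not overlap. All 18 of its spot sets were positive.

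Of the genes that act in lipid handling, 6 were among the 61. Fatp, of the fatty acid transport proteins that take up and activate fatty acids, averaged 0.92 ± 0.59. It stood at 0.45, 1.51 and 0.69 on the banana-channel-1 slides of pairs 1, 2 and 3 and at 0.17, 1.66 and 1.04 on the cornmeal-channel-1 slides. Both slides of pair 2 were high and both of pair 1 were low. ScpX, whose mammalian namesake is a peroxisomal thiolase with a sterol carrier domain, averaged 0.72 ± 0.34. Its values were 0.70, 0.97 and 0.33 on the banana-channel-1 slides and 0.37, 1.19 and 0.78 on the cornmeal-channel-1 slides, and all 18 spot sets were positive. Mfe2, a peroxisomal multifunctional enzyme that carries out the hydratase and dehydrogenase steps of β-oxidation, averaged 0.52 ± 0.21. It had 0.40, 0.66 and 0.20 on the banana-channel-1 slides against 0.48, 0.77 and 0.62 on the cornmeal-channel-1 slides. As for Fatp and ScpX, its highest slide was the cornmeal-channel-1 slide of pair 2, which was the highest for 21 of the 61 genes.

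The mitochondrial branch was represented by Echs1, named after the human short-chain enoyl-CoA hydratase, with 0.60 ± 0.47. Echs1 had 0.0095, 0.68 and 0.54 on the banana-channel-1 slides against 0.22, 0.82 and 1.34 on the cornmeal-channel-1 slides, so that pair 1 was low on both slides. Mtp, the microsomal transfer protein that loads lipid onto lipoproteins, averaged 0.42 ± 0.25. In Mtp the low slides were those of pair 3, with 0.13 in the banana-channel-1 orientation and 0.12 in the other, and the remaining slides lay between 0.46 and 0.72. CG6271, predicted to encode a lipase of the pancreatic family, had 0.74 ± 0.70 and rested mainly on pair 3. Its pair 3 slides read 1.18 and 1.94, and the other 4 lay between 0.025 and 0.45.

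A wider list of peroxisome and fatty acid oxidation genes, drawn up after the 61 genes were seen, had 23 measured members with a median of 0.20. The median of all named genes was 0.00. Of the 23, 7 were above 0 on all 6 slides and 0 were below 0 on all 6, where all named genes had 3.81% and 2.85%. The 7 include 4 of the 61 genes, around which the list was built, so the count partly restates their choice. Besides Fatp, ScpX, Mfe2 and Echs1, the 7 included Acox57D-p (0.74), which was left out by symbol, Acox57D-d (0.36) and the peroxisomal import gene Pex13 (0.36), whose means fell short of 0.4. The other 6 peroxin genes measured lay between -0.52 in Pex23 and 0.11 in Pex6, and none of them was positive on more than 3 slides.

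Nitrogen and glutathione metabolism contributed 6 genes. Gclm encodes the modifier subunit of glutamate-cysteine ligase, which makes the precursor of glutathione, and it averaged 0.76 ± 0.25. Its slides read 0.64, 0.75 and 0.43 with banana RNA in channel 1 and 1.20, 0.72 and 0.81 with cornmeal RNA in channel 1. No spot set of Gclm was negative. Ssadh, succinic semialdehyde dehydrogenase of the GABA degradation route, had the smallest SD of the 61 genes, with 0.44 ± 0.12. It read 0.23, 0.36 and 0.53 on the banana-channel-1 slides and 0.46, 0.57 and 0.47 on the cornmeal-channel-1 slides, and its SD between the spot sets of a slide was 0.082.

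The arginase gene arg averaged 0.51 ± 0.40, with 0.18, 0.61 and 0.096 on the banana-channel-1 slides and 0.24, 0.93 and 1.02 on the cornmeal-channel-1 slides. Gs2, a glutamine synthetase, averaged 0.46 ± 0.30, with 0.11, 0.18 and 0.37 on the banana-channel-1 slides and 0.66, 0.88 and 0.55 on the cornmeal-channel-1 slides. In Gs2 the orientations did not overlap, whereas arg was low on both slides of pair 1. Agxt, an alanine-glyoxylate aminotransferase, was the gene nearest the minimum mean, with 0.40 ± 0.33 and 1 slide above 0.5, at 1.02. CG6415, a predicted aminomethyltransferase of the glycine cleavage system, averaged 0.51 ± 0.35.

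The amino acid list held 25 measured genes, of which 3 (arg, Gs2 and Agxt) were above 0 on all 6 slides and 0 were below 0 on all 6. All named genes had 3.81% and 2.85%. The list median was 0.08. The ornithine aminotransferase gene Oat (0.60) and the glutamate dehydrogenase gene Gdh (0.45), whose enzymes act next to arginase and glutamine synthetase, were positive on 5 of 6 slides. Oat missed the set on the banana-channel-1 slide of pair 3, at -0.085, and Gdh on the cornmeal-channel-1 slide of pair 3, at -0.13. At the other end of the list the fumarylacetoacetase gene Faa averaged -0.37, and 1 of its 6 slides was positive. In the metal and redox list, where Gclm belongs, it was the only one of 15 measured genes above 0 on all 6 slides, and the median was -0.03.

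The tanning and pteridine genes Ddc, e and Pu act in one connected route. Ddc makes dopamine from dopa, ebony (e) joins dopamine to β-alanine, and Pu is the GTP cyclohydrolase that starts synthesis of the tetrahydrobiopterin cofactor used upstream of Ddc. Ddc averaged 1.36 ± 1.38, with 0.51, 1.62 and 0.28 on the banana-channel-1 slides and 0.33, 3.89 and 1.51 on the cornmeal-channel-1 slides. Pair 2 weighed most in this mean, with a pair average of 2.76, against 0.42 in pair 1 and 0.89 in pair 3. The slide at 3.89 carried 2 measured spot sets, at 4.95 and 2.74, and Ddc left the set when the median of the spot sets replaced their mean.

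Unlike Ddc, e was lowest in pair 2. It averaged 0.75 ± 0.45, with 0.41, 0.71 and 0.84 on the banana-channel-1 slides and 1.14, 0.091 and 1.32 on the cornmeal-channel-1 slides. Pu averaged 0.61 ± 0.40, read 0.40, 0.28 and 0.45 on the banana-channel-1 slides and 1.36, 0.78 and 0.39 on the cornmeal-channel-1 slides, and was positive in all 18 spot sets. The pairs in which the 3 genes were highest thus differed, with Ddc in pair 2, e in pair 3 and Pu in pair 1. For Pu this leaned on 1 spot set of the cornmeal-channel-1 slide of pair 1, at 2.58 beside 0.64 and 0.76. The melanin and tanning list had 7 measured genes and a median of 0.61. Its other members were yellow-b (0.86, positive on 4 of 6 slides), yellow-f2 (0.06) and the prophenoloxidase genes PPO1 (0.05) and PPO2 (-0.0031). Of the 10 measured eye pigment and pteridine genes Pu alone was above 0 on all 6 slides, where all named genes had 3.81%, and the median was 0.11.

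**Figure D2:**
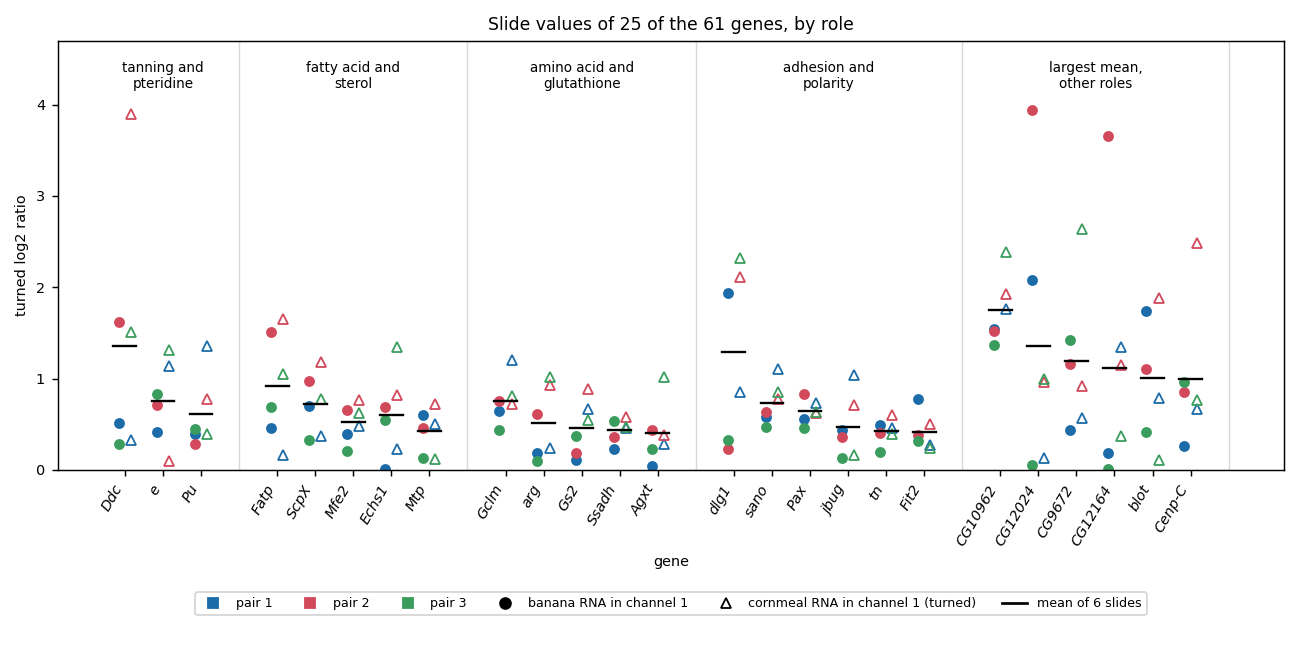
Turned log2 ratio (vertical axis) of 25 of the 61 genes by slide, grouped by role. Colours mark the flip pair, filled circles banana-channel-1 slides, open triangles turned cornmeal-channel-1 slides, and bars the 6-slide mean. Pax, tn and Ssadh have closely spaced slides, whereas Ddc, CG12024 and CG12164 each have 1 slide above 3.6.

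Genes of cell adhesion, polarity and the actin cytoskeleton formed another group of 6. Pax, the paxillin of integrin adhesion sites, averaged 0.64 ± 0.13, with 0.56, 0.83 and 0.46 on the banana-channel-1 slides and 0.74, 0.62 and 0.63 on the cornmeal-channel-1 slides. The orientations overlapped fully, and all 18 spot sets were positive. Fit2, a fermitin that activates integrins, averaged 0.42 ± 0.20, the filamin-type actin crosslinker jbug 0.47 ± 0.35, and tn, a TRIM protein needed for muscle integrity, 0.42 ± 0.13. The probes of jbug disagreed, since one averaged 0.65 with 6 positive slides and the other 0.29 with 4, down to -0.24 on the cornmeal-channel-1 slide of pair 3. The values of tn were 0.49, 0.40 and 0.20 on the banana-channel-1 slides and 0.45, 0.60 and 0.40 on the cornmeal-channel-1 slides.

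The planar polarity gene sano averaged 0.74 ± 0.23 and had 0.57, 0.64 and 0.47 on the banana-channel-1 slides against 1.11, 0.77 and 0.85 on the cornmeal-channel-1 slides, without overlap. For dlg1, whose protein is a scaffold of septate junctions, the mean was 1.29 ± 0.94 and joined 3 probes that disagree. One probe averaged 0.10 and was positive on 4 of 6 slides, another averaged 1.79 and was positive on 5 of 6, with -2.14 on the cornmeal-channel-1 slide of pair 1, and the last had a value on 2 slides. Of its 27 measured spot sets 16 were positive, the smallest share among the 61 genes.

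In a focal adhesion list drawn up after the 61 genes were seen, 5 of 15 measured genes were above 0 on all 6 slides, where all named genes had 3.81%. The list was built around 4 of these 5, so the count is largely fixed by that choice. They were Pax, jbug, tn, Fit2 and the α-actinin gene Actn, whose mean of 0.38 fell short. Integrin and core linker genes of that list averaged near 0, with rhea (talin) at -0.01, mew at -0.0032, Ilk at 0.06 and Vinc at 0.02, and p130CAS was negative on 6 of 6 slides at -0.27. The list median was 0.08. In the septate junction and polarity list, dlg1 and sano were the 2 of 15 measured genes above 0 on all 6 slides, and the median was -0.09, with baz at -0.46. Muscle genes had a median of 0.08 over 22 measured genes, 4 of them above 0 on all 6 slides. Of the muscle genes tn was among the 61, whereas bt, up and Mf were left out by symbol and could not enter.

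Sugar and hydrolase genes were fewer. Gnpnat, the glucosamine-phosphate acetyltransferase of the route to UDP-N-acetylglucosamine, averaged 0.63 ± 0.25, with 0.64, 0.78 and 0.19 on the banana-channel-1 slides and 0.78, 0.88 and 0.54 on the cornmeal-channel-1 slides. CG17027, a predicted inositol monophosphatase, averaged 0.65 ± 0.33 and CG7997, a predicted α-galactosidase, 0.54 ± 0.44. Among peptidases, CG9672, predicted to encode a trypsin-like serine protease, averaged 1.19 ± 0.80. It had 0.44, 1.16 and 1.42 on the banana-channel-1 slides and 0.57, 0.92 and 2.64 on the cornmeal-channel-1 slides, so that pair 1 was low and pair 3 high in both orientations. All 17 measured spot sets of CG9672 were positive, as were all 18 of the cathepsin gene CtsK2 (0.74 ± 0.46). The carboxylesterase gene alpha-Est5 averaged 0.54 ± 0.40 and the predicted serine protease gene CG10764 0.42 ± 0.34.

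The last groups were small, with 5 genes of chromosomes, RNA or the germline and 4 of stress, transport or the Golgi. Cenp-C, a centromere protein gene, averaged 1.00 ± 0.77, but 9 of its 18 spot sets had a value, and the spot sets of the cornmeal-channel-1 slide of pair 2 read 4.33 and 0.81. The germline gene zuc, a nuclease of the piRNA pathway, had close slide means (0.56 ± 0.15) from spot sets that differed widely. On its banana-channel-1 slide of pair 1 the 3 spot sets read -0.77, 3.11 and -0.37. The egg-patterning ligand gene grk averaged 0.49 ± 0.28 with 17 of 18 spot sets positive. The ovary and egg list around it had a median of -0.01 over 13 measured genes, and 6 of the 13 had a mean above 0. The list ran down to osk at -0.54 and bcd at -0.57. With grk, 2 of the 13 were above 0 on all 6 slides and 1 was below, where all named genes had 3.81% and 2.85%. MED9 of the Mediator complex (0.59 ± 0.50) and the nonsense-mediated decay gene Smg6 (0.52 ± 0.40) completed the first group.

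In the second, l(2)efl, a small heat shock family gene, averaged 0.78 ± 0.40, with 0.61, 0.45 and 0.26 on the banana-channel-1 slides and 1.25, 1.18 and 0.94 on the cornmeal-channel-1 slides, without overlap. The anoxia-responsive gene fau averaged 0.49 ± 0.14 over 2 probes. One averaged 0.62 with 6 positive slides. The other averaged 0.35 with 5, and read -0.098 on the banana-channel-1 slide of pair 2. All 4 genes of the set with more than 1 probe (dlg1, CG3793, fau and jbug) had a probe below 0 on at least 1 slide. Golgin104 had 0.47 ± 0.34. The transporter-family gene blot averaged 1.01 ± 0.71 with an SD of 1.67 between the spot sets of a slide, and it left the set when their median was used.

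For the remaining 23 genes no role is given here. They averaged between 0.41 and 1.36, with a median of 0.53. CG12024 (1.36 ± 1.46) and CG12164 (1.12 ± 1.35) had the widest ranges besides Ddc. CG12024 read 2.08, 3.94 and 0.053 on the banana-channel-1 slides and 0.13, 0.96 and 1.00 on the cornmeal-channel-1 slides. The value of 0.13 averaged 2 spot sets at -2.78 and 3.01, and that of 3.94 took in a spot set at 7.22. CG12164 read 0.18, 3.65 and 0.0058 on the banana-channel-1 slides and 1.34, 1.15 and 0.37 on the cornmeal-channel-1 slides, and it left the set under each of 4 changes of averaging, centring or completeness.

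Closer slides were found for CG8888 (0.60 ± 0.19), CG2145 (0.53 ± 0.18), CG45002 (0.41 ± 0.17) and CG3036 (0.41 ± 0.19). CG8888 had 0.54, 0.55 and 0.60 on the banana-channel-1 slides and 0.33, 0.89 and 0.70 on the cornmeal-channel-1 slides. CG10570 averaged 0.98 ± 0.46, CG3270 0.82 ± 0.35 and CG10562 0.77 ± 0.51. CG3793 averaged 0.52 over 2 probes that disagreed, of which one averaged 1.10 with 6 positive slides and the other -0.06 with 2. The other genes without a role here were Neurochondrin, CG7139, CG10949, CG7953, CG13360, CG2202, CG3868, CG33307, bisc, CG11309, CG10184, CG6839 and CG6465.

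Most of the 61 genes had larger ratios in one slide orientation. The banana-channel-1 slides gave a median of 0.44 and the turned cornmeal-channel-1 slides a median of 0.73. Of the 61 genes, 50 (82.0%) were higher on the cornmeal-channel-1 slides, against 55.0% of all named genes, and 11 were higher on the banana-channel-1 slides, against 45.0%. Among all 158 genes above 0 on all 6 slides, which include the 61, 95 (60.1%) were higher on the cornmeal-channel-1 slides, with medians of 0.34 on the banana-channel-1 slides and 0.43 on the cornmeal-channel-1 slides. All 6 lipid genes, all 6 amino acid and glutathione genes and all 3 tanning genes were on that side, whereas blot, fau, Golgin104, Fit2 and bisc were among the 11 genes higher on the banana-channel-1 slides. The part of dye or slide in this difference was not tested.

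**Figure D3:**
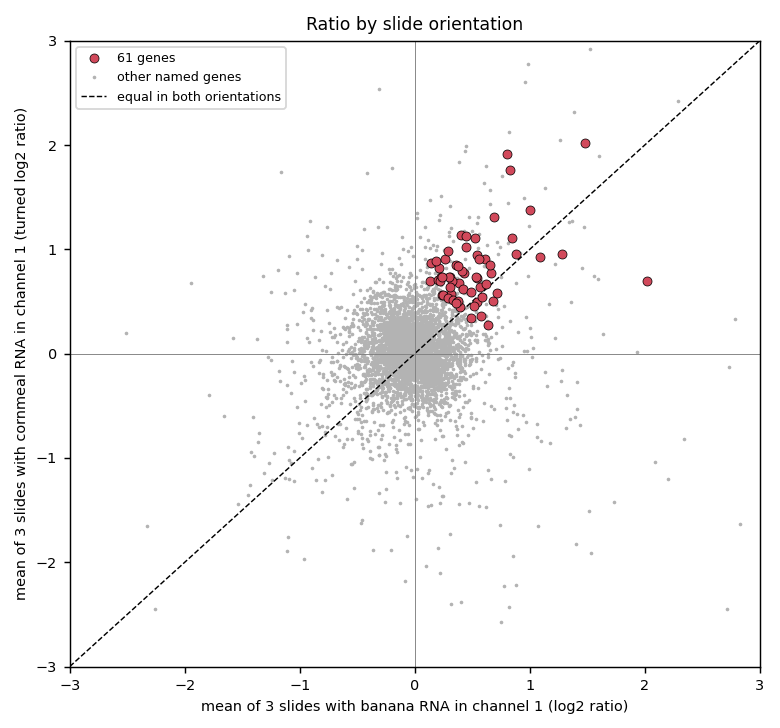
Mean of the 3 banana-channel-1 slides (horizontal axis) and of the 3 turned cornmeal-channel-1 slides (vertical axis), both log2 ratios, for the 61 genes (large points) and the other named genes (small points, 5 of which lie outside the axes). Of the 61 genes 50 lie above the dashed line of equality.

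Over the whole set the pairs had closer medians than the orientations. In 36 of the 61 genes the range over the 3 pairs exceeded the difference between orientations. A range over 3 values tends to be the larger of these measures in any gene, and the count was not made for all named genes, so nothing is read from it. The median of the 61 genes was 0.52 in pair 1, 0.58 in pair 2 and 0.56 in pair 3. Pair 1 was the highest pair for 16 genes, pair 2 for 24 and pair 3 for 21. The pairs were closest in CG2145, at 0.53 in each of the 3, and in CG3036, at 0.39, 0.41 and 0.42. By contrast Fatp had 0.31, 1.58 and 0.86 in pairs 1, 2 and 3 and CG7953 0.11, 0.57 and 1.13.

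The SD between the repeat spots of a slide was not used by the rule, but the mean of these spots was. After each spot set was centred on its own median, the SD between the spot sets of a slide had a median of 0.21 among the 61 genes and of 0.20 among the other named genes. All spots had a value for 73.8% of the 61 genes and 75.4% of the others. Every measured spot set was positive for 17 of the 61 genes and for 16 of the other 4083. The rule asked for a positive mean of these spots on each slide, so it partly fixed this count. The 17 included CG10962, Gclm, sano, ScpX, Pax, Mfe2, Pu, CtsK2, Ssadh, CG8888, CG2145 and CG10949, which also stayed in the set under the 4 changes of averaging, centring and completeness and without each pair in turn. These changes reuse the values that chose the genes and are no independent check.

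**Figure D4:**
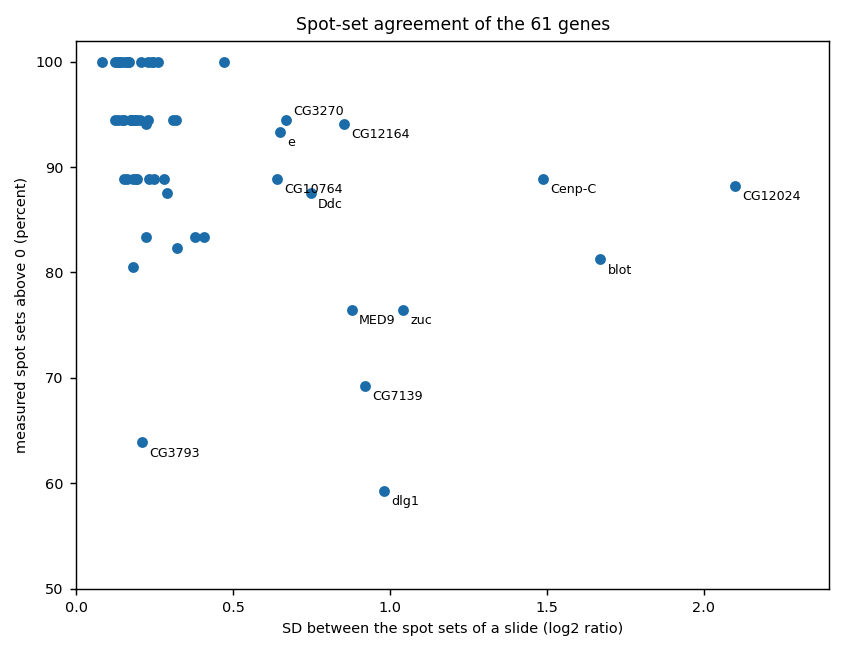
SD between the spot sets of a slide (horizontal axis, log2 ratio) and percent of measured spot sets above 0 (vertical axis) for the 61 genes, 1 point a gene. Most points lie below an SD of 0.5, and CG12024, blot, Cenp-C and zuc lie beyond 1, while dlg1 and CG3793 have the fewest positive spot sets.

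The 61 genes were also set against their neighbours in the gene order of the reference, where 60 of them were found. No 2 of them were next to each other. Of 40 other measured genes directly beside one of the 61, 23 had a mean above 0, their median was 0.03, and 0 were above 0 on all 6 slides. Within 5 protein-coding genes to either side there were 173 other measured genes, of which 7 (4.05%) were above 0 on all 6 slides. All named genes had 3.81%, but that share counts the 61 genes themselves, which the 173 leave out. These shares are therefore not like for like, and nothing is read from their closeness. Members of the set lay within 5 genes of each other in 2 cases, CG7953 with CG33307 and dlg1 with Gs2.

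CG7953 and CG33307 were both highest on the cornmeal-channel-1 slide of pair 3. CG7953 read 0.14, 0.41 and 0.75 on the banana-channel-1 slides and 0.076, 0.73 and 1.504 on the cornmeal-channel-1 slides, and CG33307 read 0.15, 0.32 and 0.21 and then 0.47, 0.66 and 1.09. CG7916, which lies beside CG7953, averaged 0.57 but was negative on both slides of pair 1, at -0.21 and -0.80. Beside ScpX, CG17597 averaged 0.76 and was positive on 5 of 6 slides, with -0.21 on the banana-channel-1 slide of pair 3. These neighbours were picked after their values were seen.

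Genes just inside and just outside the limits differed little. By mean, the last inside were Agxt (0.401), CG3036 (0.405) and CG45002 (0.412), and the first outside were CG4955 (0.399), SPE (0.396) and CG6484 (0.386). By lowest slide, the last inside were alpha-Est5 (0.0042), CG12164 (0.0058) and Echs1 (0.0095). The first outside were CG13325 (-0.014), Dci (-0.017) and the amylase gene Amy-p (-0.023), which averaged 1.04.

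**Figure D5:**
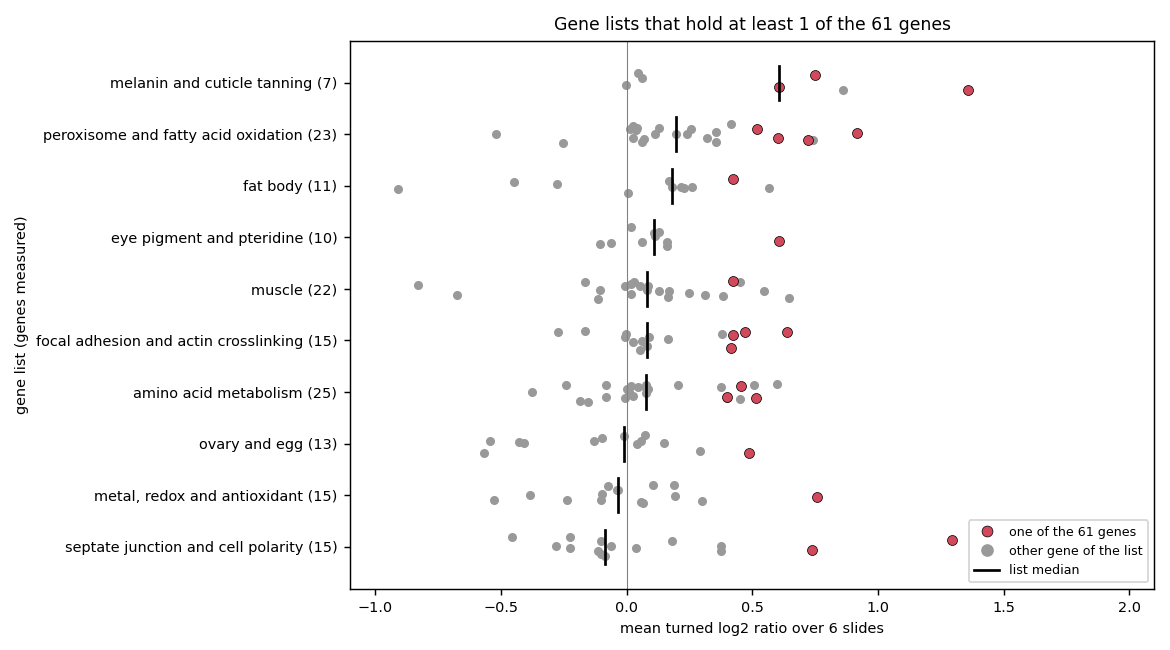
Mean turned log2 ratio over 6 slides (horizontal axis) of each measured gene in the 10 gene lists that hold at least 1 of the 61 genes, with the list median as a bar. The peroxisome and focal adhesion lists were drawn up after the 61 genes were seen. The melanin and tanning list has the highest median, 0.61, over 7 genes. Of these, 3 are among the 61, so this median partly restates their choice.

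Markers of tissues and stages gave no levels, since the table holds ratios only. Of 11 measured fat body genes 2 were above 0 on all 6 slides, where all named genes had 3.81%. The fat body median was 0.18, with Mtp (0.42) among the 61 genes and apolpp at -0.91. Gut genes had a median of 0.03 over 12, haemocyte genes 0.03 over 12 and neural genes -0.06 over 13. Glue and ecdysone-response genes had 0.10 over 11, Malpighian tubule genes -0.04 over 12, male reproductive genes -0.13 over 6 and sensory genes -0.05 over 5. Outside the fat body list, 1 gene of the lists named so far in this paragraph was above 0 on all 6 slides, in the gut list. The muscle list and the ovary and egg list, described above, had 4 of 22 and 2 of 13 measured genes above 0 on all 6. AkhR of the fat body list and mag of the gut list were left out by symbol and could not enter the 61. Below 0 on all 6 slides were 3 of the 12 gut genes, among them Bace at -2.36. So was 1 gene each of the fat body, neural, Malpighian tubule and ovary lists. All named genes had 2.85% below 0 on all 6 slides. The part of such cells in the ratios was not tested.

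The remaining lists held 0 of the 61 genes, and LManV of the lysosomal list could not enter because it was left out by symbol. Their medians were 0.08 for 18 nucleoside and purine genes, 0.07 for 33 solute transporters, 0.03 for 31 insulin, TOR and autophagy genes, 0.08 for 20 antimicrobial genes and 0.16 for 12 lysosomal genes. They were 0.07 for 13 developmental signalling genes, -0.03 for 25 developmental transcription factors, -0.10 for 5 circadian genes and 0.16 for 2 juvenile hormone genes. For 51 membrane traffic genes, 22 cytoskeleton and matrix genes and 39 splicing and chromatin genes they were -0.02, 0.01 and -0.11. Above 0 on all 6 slides were 2 of the 20 antimicrobial genes and 1 gene each of the lysosomal, cytoskeleton and developmental transcription factor lists, and 0 in the others, where all named genes had 3.81%. Below 0 on all 6 slides were 3 insulin, TOR and autophagy genes and 2 genes each of the transporter, membrane traffic and splicing lists, and 0 in the others, where all named genes had 2.85%.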

How the data were processed

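The deposited table gives log2 ratios (an inference from their range, -16.02 to 13.21, since base and direction are unstated) of 18 samples over 5620 probes, 4860 to 5149 with a value per column. The authors' scanning, background correction and normalisation are not stated in the sources used here. Channel intensities were not used here, so signal over background is unknown.

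Genes were named from the platform annotation, which pairs 4955 probes with a single symbol, 85 with several and 580 with none. The RefSeq gene table (Release 6) listed 4876 of the 4955. Fatp was not found there and kept its symbol. No source used here names the probes' build, so no coordinates are printed.

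Spot sets were averaged per slide, slide medians were subtracted, cornmeal-channel-1 slides were multiplied by -1, and probes of a gene were averaged. All rows with a value on both slides of all 3 pairs were tested with limma 3.58.1 in R 4.3.3 on the 3 pair ratios (two-sided, Benjamini-Hochberg, threshold 0.05), after a test on simulated data. The pairing comes from the labels, which name each slide's flip partner. The 61 genes, the lists and the rule for named genes were chosen with earlier results of these data known, and the roles, the peroxisome list and the focal adhesion list after the genes were seen. That rule took the 12 largest means, the 10 highest lowest slides, the 6 smallest SDs, the 3 largest ranges, 3 genes on each side of either limit, list members and neighbours. Other genes outside the set were named after their values were seen. The ovary list also caught Vmat, Cp110 and Cp190 by their symbols. Alternatives changed spot averaging, centring, completeness, turning, pairs, limits, probes and units. Figures were drawn with matplotlib 3.10.9.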

Additional observations from a re-analysis of the deposited data

Results flagged for a closer look

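The 38 genes named by rule include those with the largest means and ranges, so slides that stand apart are to be found among them by that choice, and these values are a description. In 3 of the 38 genes, all picked for a large mean and CG12164 and Ddc also for a wide range, 1 slide lay far from the other 5, with a gap to the nearest slide above Dixon's 95% limit as a share of the range (passed by chance in about 1 of 20 groups not picked in this way). In CG12164 it was the banana-channel-1 slide of pair 2, at 3.65 (gap 0.633 of the range). In Ddc it was the cornmeal-channel-1 slide of pair 2, at 3.89 (0.631), and in Cenp-C the same slide, at 2.49 (0.688).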

How the results depend on the processing

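The set of 61 genes kept 48 when spot sets were joined by their median (59 genes met the rule), 47 without centring of slides (51), 54 with each spot set centred on its own median (58) and 41 with probes that had all 18 values (42). A lower limit of 0.3 for the mean gave 94 genes, a sign rule on the 3 pairs in place of the 6 slides 129, and every spot set above 0, chosen after seeing the data, 17. Without 1 pair the rule, then on 4 slides, gave 85 to 179 genes (152 without pair 1, 85 without pair 2, 179 without pair 3), of which 52 or 53 were among the 61, and 39 of the 61 met it without each pair in turn. With no slide turned, as if the authors had already turned the values, 24 other genes and 0 of the 61 met the rule. The 0 was fixed in advance, since the 61 genes are then below 0 on every cornmeal-channel-1 slide. For 50 of the 61 the unturned mean was below 0, and these are the same 50 that were higher on the cornmeal-channel-1 slides. For the diet ratio, limma with 6 slides as units and the flip pair as a replicate block (estimated correlation -0.0895) called 20 rows, and with no block 1 row. Of the 20, 19 had an adjusted p between 0.04 and 0.05, so that this count rests on rows close to the threshold. Both take 6 slides and not 3 pairs as units, and 510 and 463 rows had an unadjusted p under 0.05. Leaving out a pair gave 0 rows at an adjusted p of 0.05. Limma on the 3 pair ratios with no slide turned also called 0 rows. There 434 rows had an unadjusted p under 0.05, against 380 with turning. The smallest adjusted p of these limma fits was 0.0599 without turning and 0.275 with it. Of the 32 named genes of the set, 5 had a positive mean without turning. Their means stay positive by construction when a pair is left out. Signal over background is not known for any spot.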
